A study of Mus musculus with 16 samples.

Results

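The Wnt pathway genes described here are 43 named ligands, receptors, secreted antagonists, feedback inhibitors and transcription factors, read in basal epithelial cells captured from mouse limbus and cornea. They were chosen by name as members of the pathway, at a time when earlier results of these data were known. A probe set, the group of short probes that together report 1 transcript, was used where the platform annotation gave it a single gene symbol on the list. That rule found 91 probe sets for 42 of the 43 genes, of 18193 genes with such a probe set on the array. Tcf7 was named by none of them and is not analysed here.

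Each of 8 wild-type mice gave 1 limbal capture and 1 corneal capture of 300 epithelial basal cells, taken by laser microdissection from the anterior eye, so there were 8 limbal and 8 corneal arrays. No label used here gives the strain, age or sex of the mice or any treatment. RNA from so few cells was amplified before it was hybridised to an Affymetrix Mouse430_2 array. The comparison asks which of these genes differ in signal between basal cells of the limbus, the rim of the cornea held to house its epithelial stem cells, and corneal basal cells of the same animal. In a captured sample, fewer cells of a type and less RNA per cell cannot be told apart.

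Wnt proteins are secreted lipid-modified ligands that bind Frizzled receptors and the co-receptors Lrp5 and Lrp6. In the canonical branch the signal spares beta-catenin from destruction, and beta-catenin then acts with Lef1 and Tcf proteins on target genes, several of which, such as Axin2, feed back to dampen the signal. Secreted frizzled-related proteins bind the ligands, and some Dickkopf proteins, such as Dkk1, bind the co-receptors. In the mouse eye, loss of the antagonist Dkk2 is known to turn the corneal surface towards a skin-like fate.

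Promoter windows were searched for the letters that Tcf and Lef1 proteins favour, CTTTGAT and CTTTGAA, on both strands (on the reverse strand they read ATCAAAG and TTCAAAG). The windows run from 250 bases before to 50 bases after a gene's start, are 300 bases long, and come from RefSeq on build GRCm38.p6. The 5 windows below are those of Wnt4 and Wnt9a, the ligands with the lowest p-values, and those of Wnt5b, Wnt11 and Dkk1, the genes whose windows hold a match. Each is written 5′ to 3′ in the direction of the gene, with the matched letters in capitals. Wnt4 lies at chr4:137277385-137277684 on the plus strand, Wnt9a at chr11:59306680-59306979 on the plus strand, Wnt5b at chr6:119449337-119449636 on the minus strand, Wnt11 at chr7:98834862-98835161 on the plus strand and Dkk1 at chr19:30549447-30549746 on the minus strand.
Wnt4: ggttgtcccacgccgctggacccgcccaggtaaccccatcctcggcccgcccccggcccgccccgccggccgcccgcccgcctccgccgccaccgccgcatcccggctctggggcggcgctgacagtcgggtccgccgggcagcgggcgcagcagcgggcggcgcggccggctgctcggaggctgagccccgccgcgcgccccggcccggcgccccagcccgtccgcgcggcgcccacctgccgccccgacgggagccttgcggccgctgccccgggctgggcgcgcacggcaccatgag
Wnt9a: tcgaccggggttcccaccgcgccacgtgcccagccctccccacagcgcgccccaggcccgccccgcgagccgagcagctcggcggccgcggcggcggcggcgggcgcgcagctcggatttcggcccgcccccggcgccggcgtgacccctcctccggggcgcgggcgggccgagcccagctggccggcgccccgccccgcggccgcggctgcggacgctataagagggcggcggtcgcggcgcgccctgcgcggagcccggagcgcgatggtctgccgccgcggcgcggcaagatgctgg
Wnt5b: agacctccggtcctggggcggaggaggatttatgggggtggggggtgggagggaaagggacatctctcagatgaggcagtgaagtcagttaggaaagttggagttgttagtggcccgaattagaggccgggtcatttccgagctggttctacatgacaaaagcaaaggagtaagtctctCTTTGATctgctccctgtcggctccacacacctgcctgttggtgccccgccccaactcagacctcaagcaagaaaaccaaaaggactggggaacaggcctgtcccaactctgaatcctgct
Wnt11: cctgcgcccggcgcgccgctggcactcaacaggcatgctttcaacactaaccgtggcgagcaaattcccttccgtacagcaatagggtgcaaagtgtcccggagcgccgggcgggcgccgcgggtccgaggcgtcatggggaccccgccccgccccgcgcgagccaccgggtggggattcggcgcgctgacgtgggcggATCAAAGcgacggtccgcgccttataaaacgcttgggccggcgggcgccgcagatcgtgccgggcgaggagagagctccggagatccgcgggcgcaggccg
Dkk1: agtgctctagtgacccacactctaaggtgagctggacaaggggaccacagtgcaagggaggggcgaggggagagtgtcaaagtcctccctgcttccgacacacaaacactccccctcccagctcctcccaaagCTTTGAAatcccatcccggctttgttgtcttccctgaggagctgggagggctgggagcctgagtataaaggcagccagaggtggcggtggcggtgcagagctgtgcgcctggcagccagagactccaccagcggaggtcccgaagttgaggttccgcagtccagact
The match lies at bases 180 to 186 of the Wnt5b window, at bases 200 to 206 of the Wnt11 window, where the letters stand on the reverse strand, and at bases 134 to 140 of the Dkk1 window. Of the 43 genes, 29 have a window, and 3 of these (10.3%) hold a match, against 9.88% of 27025 genes with a window in the table. The share in the Wnt pathway genes is close to that of all genes. The median base composition of their 38 windows was 66.5% G and C, against 52.7% over all windows. Wnt5b has 3 windows and Wnt11 has 2, and only 1 of each holds the letters.

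Before the results, the arrays themselves have to be described, because they were of unequal quality. They had been scanned on 3 days, with both arrays of a mouse always on the same day. The median correlation between arrays over all probe sets was 0.83 on day 3 (mice 6 to 8), against 0.51 on day 1 (mice 1 and 2) and 0.28 on day 2 (mice 3 to 5). The days also differed in their range of signals. The brightest 1% of probe sets on an array began at 14575 to 17948 on day 3. They began at 4915 to 9557 on day 1 and at 2417 to 4726 on day 2. Krt12, the keratin of corneal epithelium, was at 36932 to 227253 on the limbal arrays, against 948 on the corneal array of mouse 5 and 58785 to 307362 on the other 7 corneal arrays. Among marker lists of other cells, 23 of 26 tested stromal genes had a positive limbal minus corneal difference (median 1.34), and the summed stromal signal was 16864 to 464879 in limbal samples and 12419 to 97047 in corneal samples. Of the 15 corneal epithelial genes 11 had a negative difference (median -0.50), with sums of 129978 to 469452 in limbal samples and 12849 to 845994 in corneal samples. Immune genes were higher for 12 of 14 (median 0.85), with sums of 6278 to 149168 in limbal and 2757 to 17437 in corneal samples, and conjunctival genes for 9 of 12 (median 1.33), with 5188 to 105782 in limbal and 5730 to 21285 in corneal samples. Muscle genes were higher for 9 of 12 (median 0.49), with 2373 to 218006 in limbal and 2216 to 164033 in corneal samples. Of these lists, stromal, immune and conjunctival genes had 4, 3 and 1 called genes, and the epithelial and muscle lists had 0. Limbal basal genes were higher for 5 of 8 (median 0.57), with 1 called gene. By probe set, 6 of 51 stromal, 4 of 22 immune, 1 of 17 conjunctival and 1 of 15 limbal basal ones were called. Of all tested probe sets, 0.0851% were called. No marker probe set was at 0 on any array.

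Of the 91 probe sets, 59 passed the filter on low signals and were tested, and they stand for 34 genes. A probe set passed when its mean over all 16 arrays was above the 40th percentile, a signal of about 219.8. The 8 genes that had only probe sets below it were the ligands Wnt10b and Wnt16, the receptors Lrp5 and Ror2, the antagonists Dkk2, Frzb and Wif1, and the agonist Rspo1. Dkk2 had a median signal of 204 in limbal samples and 105 in corneal samples. Wnt16 reached 290 in limbal samples and 2530 in corneal samples, with medians of 165 in limbal and 280 in corneal samples. The signals of the 32 untested probe sets ran from 2.7 to 2530.

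None of the 59 tested probe sets passed the adjusted p of 0.05 in limma's paired test, with Benjamini-Hochberg adjustment over all 27022 tested probe sets. Over the whole array 23 passed, or 0.0851%, so a list of this length need not hold any. The lowest adjusted p among the Wnt pathway probe sets was 0.33. All differences are limbal minus corneal on a log2 scale, and with 8 pairs their 95% intervals reached between 0.78 and 1.10 to either side, with a median of 0.90. A difference of 1, a factor of about 2, is thus close to the width that a single interval reached to 1 side. For all 59 the signals of the sites overlapped, against 0.0148% of all tested probe sets for which they did not.

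At an unadjusted p under 0.05 stood 8 of the 59 probe sets (13.6%), against 6.46% of all tested probe sets. They belong to 7 genes. Lower in limbal samples were 5 of the 59 (8.47%, against 2.78% of all tested), namely both of Dkk3 and 1 each of Wnt4, Wnt9a and Sfrp1. Higher in limbal samples were 3 of the 59 (5.08%, against 3.69% of all tested), namely 1 each of Wnt5a, Wnt5b and Fzd4. Without the filter on low signals it was 10 of 91, against 5.9% of all probe sets. The count of 8 was 5 without mouse 1 and 3 without mouse 6. Over all 27022 tested probe sets the count was 1746, and it was 1780 without mouse 1 and 1560 without mouse 6. The excess over the whole array thus depends on single mice.

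**Figure D1:**
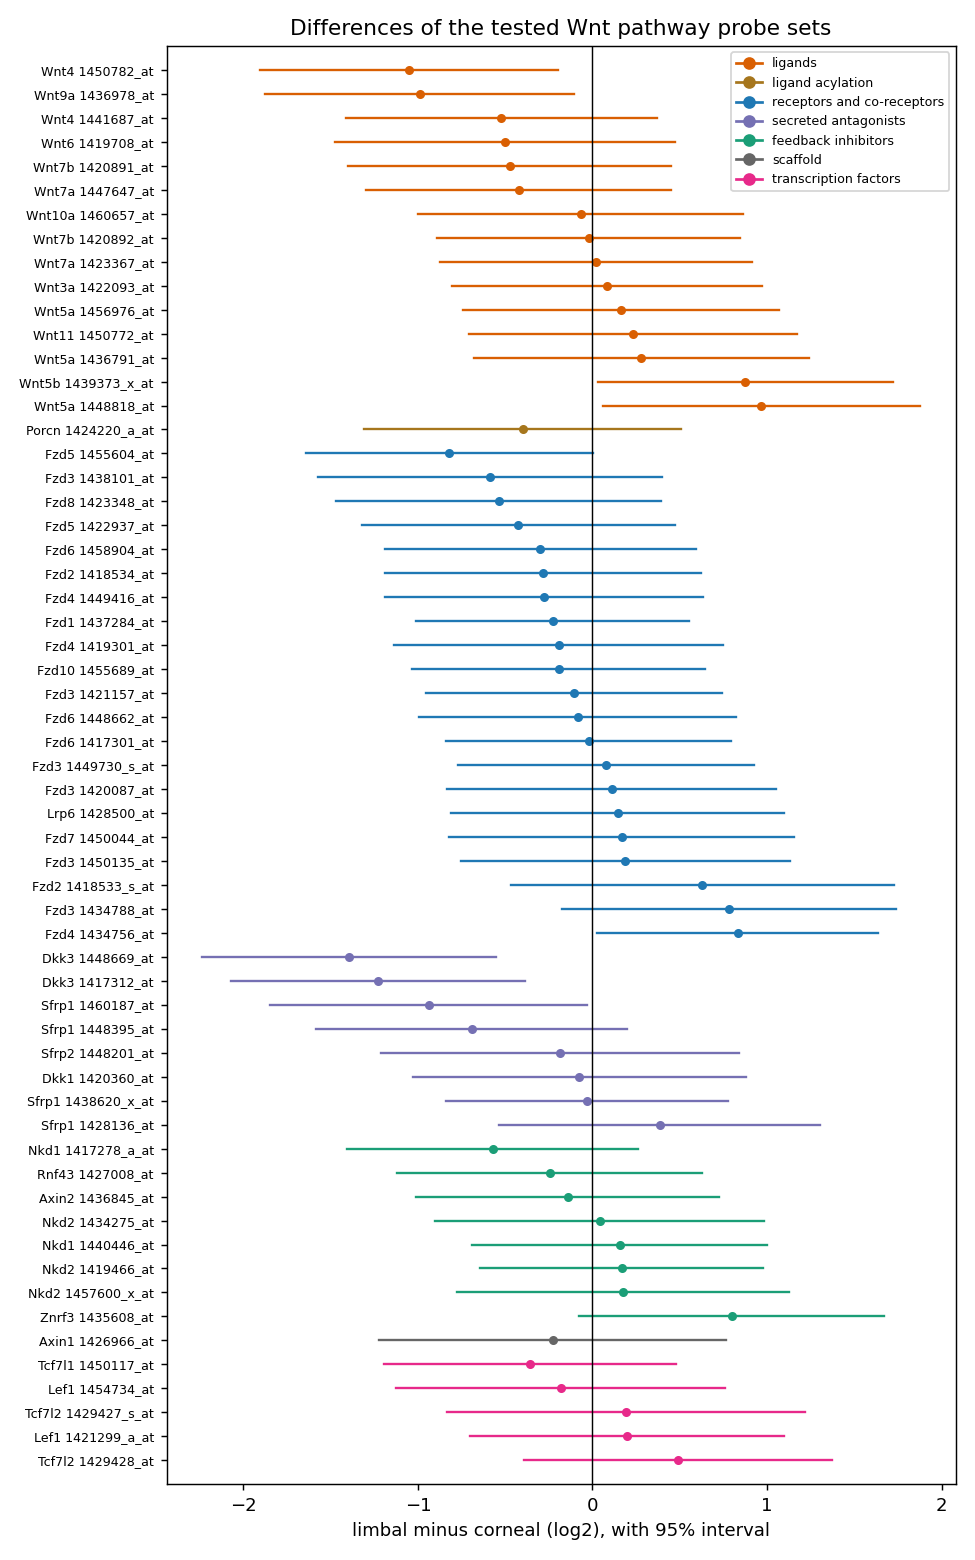
Limbal minus corneal difference (log2, x axis) of each of the 59 tested Wnt pathway probe sets, grouped and coloured by role, with the 95% interval of limma's paired fit over 8 mice. The points run from -1.39 for Dkk3 to 0.97 for Wnt5a, and the intervals of 8 probe sets leave out 0.

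Of the ligands, 10 genes were tested through 15 probe sets. Negative differences were seen for 8 probe sets and positive ones for 7, with a median of -0.021, against -0.00030 over all tested probe sets. Read at the brightest probe set of each gene, 6 ligands were lower and 4 higher in limbal samples, with a median of -0.25.

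Wnt4, a ligand that signals through either Wnt branch depending on the tissue, was read by 2 probe sets. On 1450782_at its signal was 62.7 at lowest, 857 at the median and 2218 at highest in limbal samples, against 529, 893 and 3551 in corneal samples. The limbal sample was the lower in 7 of 8 mice, with mouse 1 the exception, yet the sites overlapped through most of their range. The difference was -1.05 ± 0.42 (SE, 8 pairs), with an adjusted p of 0.66 in limma's test. Within scan days 1, 2 and 3 it was 0.11, -2.01 and -0.86. The brighter probe set, 1441687_at, had 103, 1081 and 1352 in limbal samples and 69.3, 1435 and 3025 in corneal samples. It too was lower in limbal samples in 7 of 8 mice, but here mouse 4 was the exception, with a difference of 2.83. Its pooled difference of -0.52 ± 0.44 (SE) had an adjusted p of 0.90 in limma's test, and it was -1.0 without mouse 4. Leaving out each mouse in turn gave -1.0 to -0.33.

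Wnt9a, a ligand best known from joint and vertebrate skeletal development, had limbal signals of 137 at lowest, 568 at the median and 1585 at highest, against 201, 962 and 4083 in corneal samples. Mouse 5 alone ran the other way, with 1.61. The difference was -0.99 ± 0.44 (SE, 8 pairs) and the adjusted p 0.73 in limma's test. The corneal array of mouse 5 was the one with little Krt12, and without that mouse the difference was -1.36. Leaving out each mouse in turn gave -1.36 to -0.75.

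Wnt5a and Wnt5b, the ligands most often tied to the branch of the pathway that does not use beta-catenin, had positive differences on every tested probe set. On 1448818_at Wnt5a was at 114, 357 and 1058 (lowest, median, highest) in limbal samples and at 64.6, 155 and 240 in corneal samples. No corneal sample reached the limbal median. The difference was 0.97 ± 0.45 (SE, 8 pairs; adjusted p 0.75 in limma's test), with a limbal signal above the corneal one in 6 of 8 mice. The other tested probe sets of Wnt5a gave 0.28 and 0.16, and the 3 had 1 sign in only 4 of the 8 mice. Wnt5b, whose probe set 1439373_x_at can also bind related transcripts, had 297, 1043 and 2656 in limbal samples and 171, 490 and 1459 in corneal samples. Its difference was 0.88 ± 0.42 (SE, 8 pairs; adjusted p 0.77 in limma's test), and it was positive in 6 of 8 mice. The second Wnt5b probe set, 1422602_a_at, did not pass the filter. Without the filter it gave 0.046, with 4 mice in each direction.

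In mice 1 to 8 the Wnt5b difference was 0.66, 2.23, 0.057, 1.08, -0.36, 1.89, 2.01 and -0.57. The mean difference of the stromal marker list in the same order was 1.54, 3.02, 0.69, 0.44, 0.029, 3.35, 1.88 and -0.0018. Mice 5 and 8 were lowest on both, while mouse 4 had a higher Wnt5b value than mouse 1 and a lower stromal one. The part of RNA from other cells in the Wnt5b value was not tested.

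The other ligands had smaller differences. Wnt6, an epithelial ligand, had medians of 273 in limbal and 522 in corneal samples, with ranges of 64.4 to 1087 in limbal and 101 to 1228 in corneal samples, and a difference of -0.50. Wnt7b had medians of 174 in limbal and 453 in corneal samples on 1420891_at, within ranges of 53.7 to 1012 in limbal and 49.5 to 990 in corneal samples, and a difference of -0.48. The limbal signal was nonetheless the higher one in 5 of 8 mice. The second Wnt7b probe set gave -0.021, and the 2 shared a sign in 2 of 8 mice. Wnt7a, which in human cornea acts upstream of the eye regulator Pax6, gave -0.42 on 1447647_at and 0.021 on 1423367_at. Wnt10a differed by -0.069 and Wnt3a by 0.082, while Wnt11 had a difference of 0.23. For Wnt10a the pooled value covers 1.63, -1.54 and 0.27 on scan days 1, 2 and 3.

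Wnt10a was 1 of 2 probe sets on the list, with 1 of Tcf7l2, whose difference varied between scan days at an unadjusted p under 0.05, against 5.92% of all tested probe sets. None passed after adjustment, where 0.0111% of all did, and the lowest adjusted p was 0.80 in limma's F test. Porcn, the enzyme that attaches the lipid to Wnt ligands, had medians of 248 in limbal and 472 in corneal samples. Its difference was -0.40 ± 0.45 (SE), negative in 7 of 8 mice.

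**Figure D2:**
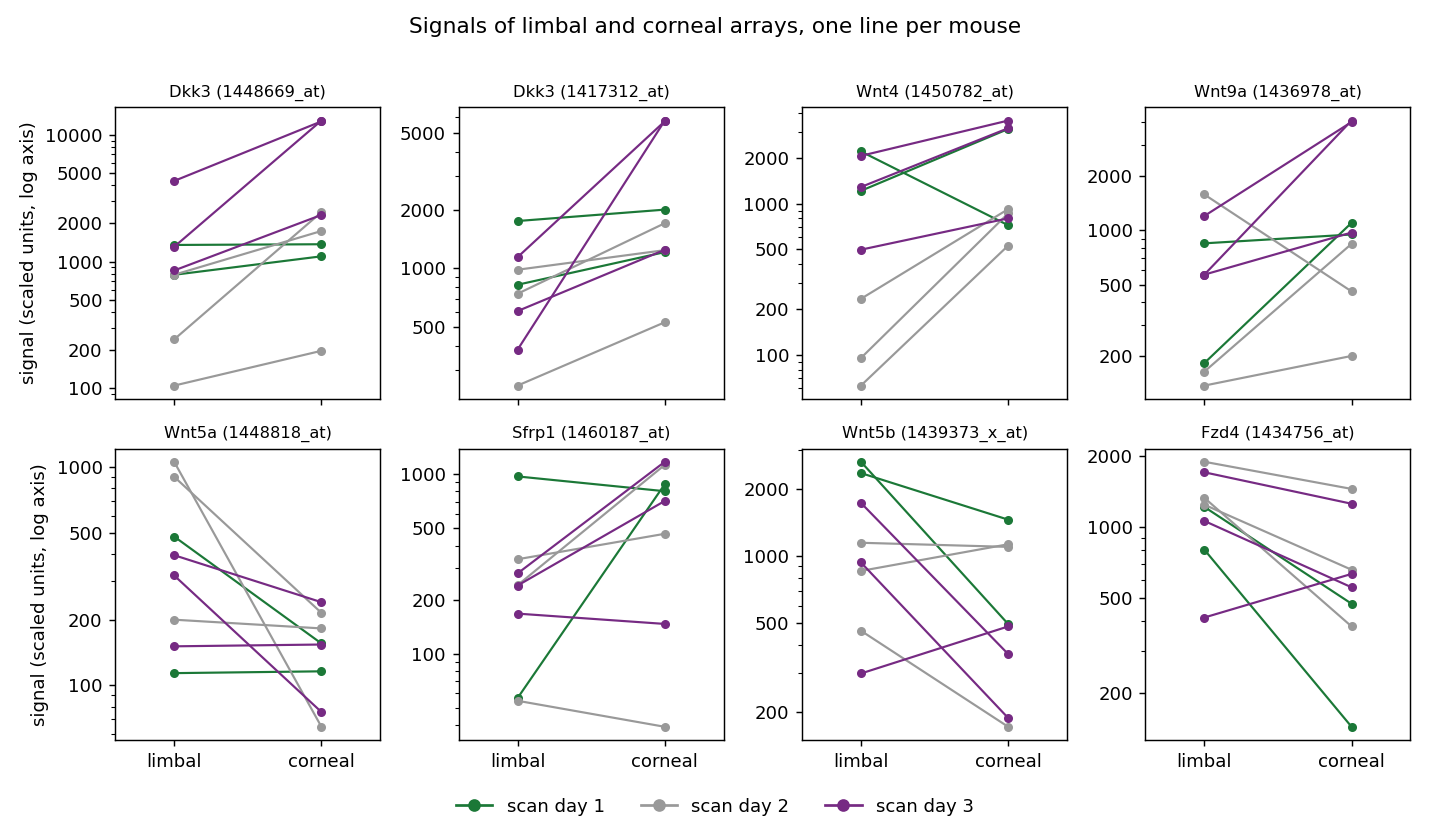
Signals (scaled units, log axis) of the 8 Wnt pathway probe sets with the lowest p-values, of 7 genes, on the limbal and the corneal array of each mouse, joined by a line and coloured by scan day. For Dkk3 all 8 lines run upwards from limbal to corneal, and the highest corneal Dkk3 signals, up to 12963, are those of scan day 3. The brightest 1% of all probe sets also stood highest on that day.

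Of the receptors and co-receptors, 10 genes were tested through 21 probe sets. Differences were negative for 13 and positive for 8, with a median of -0.11 over probe sets and also over genes. Only 1 probe set had an unadjusted p under 0.05.

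Fzd4, a Frizzled known for its role in retinal vessels, had 416, 1229 and 1884 (lowest, median, highest) in limbal samples on its brightest probe set 1434756_at, against 144, 596 and 1448 in corneal samples. The limbal signal was the higher in 7 of 8 mice, with mouse 7 the exception. The difference was 0.83 ± 0.40 (SE, 8 pairs; adjusted p 0.77 in limma's test). In mice 1 to 8 it was 1.21, 1.94, 0.83, 1.59, 0.36, 0.83, -0.52 and 0.41, so mouse 7, with 1.88 on the stromal list, was the negative one, and mice 5 and 8, with about 0 on that list, were positive. The part of RNA from other cells in the Fzd4 value was not tested. The 2 dimmer probe sets of Fzd4 gave -0.28 and -0.19, so the sign of this gene depends on the probe set read.

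Fzd5, another Frizzled receptor, had negative differences on both of its probe sets. On 1455604_at its signals were 57.6, 721 and 1415 in limbal samples and 448, 1136 and 2121 in corneal samples, and on 1422937_at the medians were 199 in limbal and 359 in corneal samples. The 2 probe sets had the same sign as each other in all 8 mice, negative in 7 and positive in mouse 2. The differences were -0.82 ± 0.41 (SE, 8 pairs; adjusted p 0.78 in limma's test) and -0.43 ± 0.44 (SE). Among the 15 genes with several tested probe sets, Dkk3 and Fzd5 were the ones whose probe sets shared a sign in every mouse.

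Fzd3, a receptor known from axon guidance and cell polarity, was read by 6 tested probe sets, and no mouse had the same sign on all of them. Their differences ran from -0.59 to 0.78. The brightest, 1449730_s_at, had 114, 609 and 1575 in limbal samples and 290, 588 and 1270 in corneal samples, a difference of 0.076. Fzd2 was similar, with -0.28 on 1418534_at and 0.63 on 1418533_s_at. Its brighter probe set was at 153, 522 and 2341 in limbal samples and at 254, 677 and 1656 in corneal samples.

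Fzd8 had 38.2, 221 and 491 in limbal samples and 90.2, 344 and 902 in corneal samples, with a difference of -0.54. That difference was negative in 6 of 8 mice. For the 3 probe sets of Fzd6 it was -0.023, -0.085 and -0.30. Fzd7 differed by 0.17 and Lrp6, a co-receptor of the canonical branch, by 0.15.

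Fzd10 and Fzd1 were named as the receptors with the brightest probe sets. Fzd10 on 1455689_at had 653, 2397 and 7883 in limbal samples and 829, 3386 and 9436 in corneal samples. Its difference was -0.19 and split evenly, with 4 mice in each direction. The scan days stood further apart than the sites, with 3214 to 7883 in limbal and 4884 to 9436 in corneal samples on day 2, against 653 to 2100 in limbal and 829 to 4092 in corneal samples on day 3. The second Fzd10 probe set, 1440182_at, did not pass the filter, and without the filter it gave -1.14 with an adjusted p of 0.75 in limma's test. Fzd1 ranged from 502 to 1487 in limbal samples and from 619 to 1640 in corneal samples, with medians of 854 in limbal and 1032 in corneal samples and a difference of -0.23. The probe sets 1455689_at and 1437284_at, of Fzd10 and Fzd1, were above the array median on all 16 arrays.

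Of the secreted antagonists, 4 genes were tested through 8 probe sets, of which 6 belong to Dkk3 and Sfrp1. Differences were negative for 7 and positive for 1, with a median of -0.44 over probe sets, against -0.021 for ligands and -0.11 for receptors. Read at the brightest probe set of each gene, all 4 were negative and the median was -0.13, against -0.25 for ligands and -0.11 for receptors. The order of the 3 classes therefore depends on whether probe sets or genes are counted.

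Dkk3, the divergent Dickkopf protein whose effect on Wnt signalling differs between tissues, was read by 2 probe sets and had the lowest p-values of the list. On 1448669_at its signal was 105, 819 and 4328 (lowest, median, highest) in limbal samples, against 198, 2039 and 12963 in corneal samples. The limbal sample was the lower one in 8 of 8 mice, although the highest limbal signal lay above 6 of the 8 corneal ones. The difference was -1.39 ± 0.42 (SE, 8 pairs), with a 95% interval of -2.24 to -0.55, which makes the corneal signal 2.63-fold the limbal one. The unadjusted p was 0.0019 and the adjusted p 0.33 in limma's test.

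The second probe set of Dkk3, 1417312_at, gave 249, 782 and 1755 in limbal samples and 528, 1479 and 5781 in corneal samples. Again every mouse had the lower signal in its limbal sample. The difference was -1.23 ± 0.42 (SE, 8 pairs), with an adjusted p of 0.49 in limma's test. These 2 probe sets were the ones on the list with a lower limbal signal in 8 of 8 mice (3.39%, against 0.596% of all tested probe sets), and they share their target, so they count as 1 gene. No Wnt pathway probe set was higher in limbal samples in 8 of 8 mice, where 0.477% of all tested probe sets were.

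The size of the Dkk3 difference varied between mice. In mice 1 to 8 it was -0.44, -0.02, -2.93, -1.06, -0.56, -3.22, -1.54 and -1.37 on 1448669_at, and -0.51, -0.19, -0.31, -1.12, -0.87, -3.64, -2.24 and -0.95 on 1417312_at. Mouse 6 was the most negative on both, while mouse 3 was far from 0 on 1 probe set alone. Over scan days 1, 2 and 3 the difference was -0.23, -1.52 and -2.04 on the first probe set, and -0.35, -0.76 and -2.28 on the other. The variation between days had an adjusted p of 0.91 in limma's F test on 1448669_at. The range of all signals also differed between the days, and its part in these values was not tested.

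The mean difference of the corneal epithelial marker list in mice 1 to 8 was 0.44, -0.45, -1.34, -1.04, 1.76, -1.76, -0.39 and -0.63. Mice 3 and 6 were lowest on this list and on 1448669_at, but mice 2 and 7 had like values on the list and Dkk3 differences of -0.02 and -1.54. In mice 1 and 5, where the list was positive, Dkk3 was still negative on both probe sets. The part of the epithelial share in the Dkk3 value was not tested.

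When limma was allowed to weight the arrays by their scatter, both Dkk3 probe sets passed the threshold. The differences were then -1.48 and -1.37, with adjusted p-values of 0.011 and 0.031 in limma's test, where 0.433% of all tested probe sets passed. This fit gave mouse 8 a weight of 5.0 and mice 7 and 6 weights of 1.92 and 1.28, against 0.47 to 0.77 for the other 5 mice, so the mice of scan day 3 carried most of the weight.

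Sfrp1, a frizzled-related protein that binds Wnt ligands, was read by 4 tested probe sets that disagreed. The brightest, 1438620_x_at, had 573, 1471 and 2942 in limbal samples and 224, 1686 and 3183 in corneal samples, and the lowest of these corneal signals was that of mouse 5. The difference was -0.030. On 1428136_at it was 0.39, on 1448395_at -0.69 and on 1460187_at -0.94 ± 0.45 (SE; adjusted p 0.77 in limma's test). On 1448395_at the signals were 125, 935 and 2543 in limbal samples and 104, 1328 and 5091 in corneal samples, with 4 mice in each direction. On the 3 mice of scan day 3 alone, 1448395_at gave -1.81 and 1428136_at -0.99, while on day 1 they gave 0.75 and 1.48.

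The other tested antagonists differed by less. Dkk1, the best-known Lrp5 and Lrp6 blocker, had medians of 247 in limbal and 340 in corneal samples and a difference of -0.075. It was lower in the limbal sample in 5 of 8 mice. Sfrp2 had medians of 266 in limbal and 284 in corneal samples and a difference of -0.19. Against the sign of that mean, Sfrp2 was higher in the limbal sample in 5 of 8 mice.

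On scan day 3, the day with the most alike arrays, 8 of 58 probe sets (13.8%) had an unadjusted p under 0.05, against 8.89% of all tested probe sets. All 8 were lower in limbal samples, namely both of Dkk3, both of Wnt4, 2 of Sfrp1 and 1 each of Wnt9a and Fzd6. None passed after adjustment, and 0.0% of all tested probe sets did. On that day the median difference over all tested probe sets was -0.020. On scan day 1 alone, only Wnt5b 1439373_x_at (1.45) and Fzd10 1440182_at (-2.38) were under 0.05, against 1784 of 27022 over the array. On scan day 2 alone it was only Wnt4 1450782_at (-2.01), against 1034 of 27022.

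**Figure D3:**
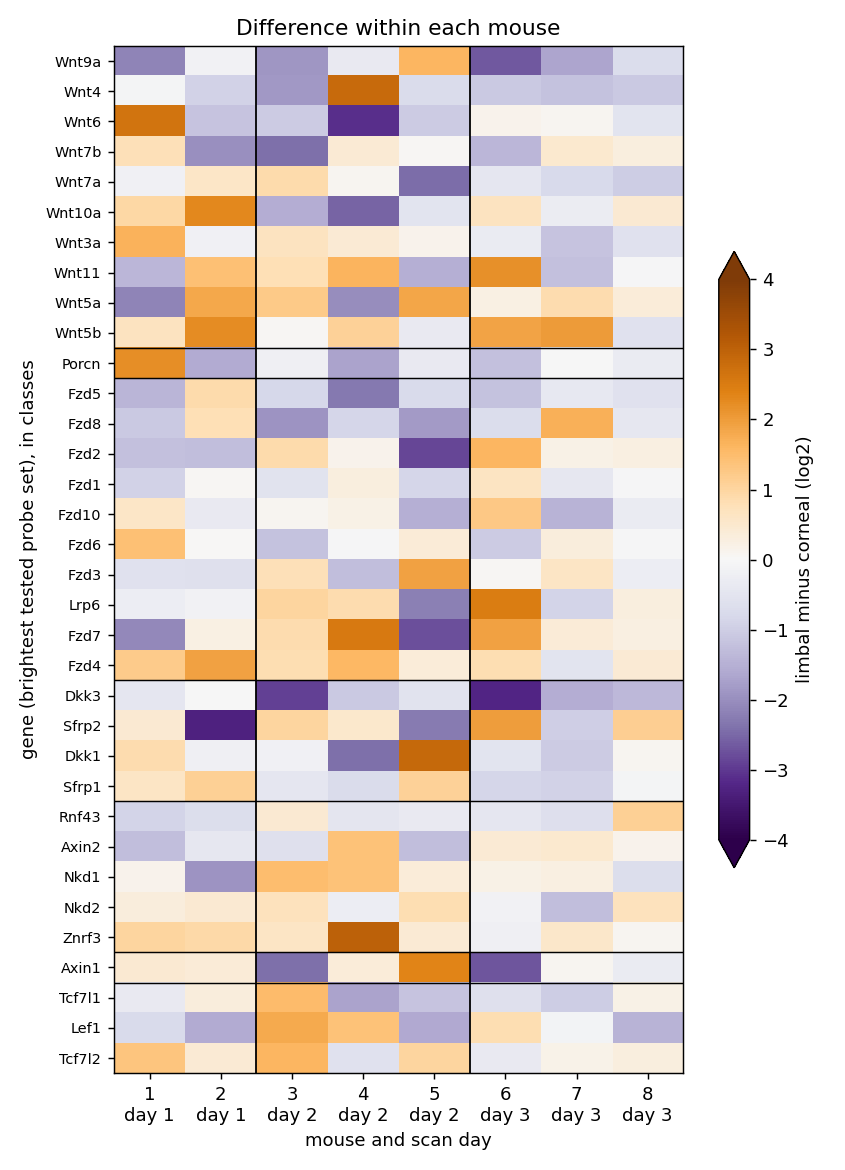
Limbal minus corneal difference (log2, colour scale) of each tested Wnt pathway gene at its brightest probe set (rows, grouped by role) in each mouse (columns, ordered by scan day). Dkk3 is the only row with the same sign in all 8 mice, while Wnt4 is negative in every mouse except mouse 4, where it is 2.83.

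Across the list, 22 of the 34 genes were lower in limbal samples at their brightest probe set and 12 were higher, a share of 64.7% lower, against 49.1% of all 13570 genes. The median difference was -0.16 over these genes and 0.011 over all genes. Within single mice, between 15 and 20 of the 34 genes were lower in the limbal sample. Of all genes, between 45.6% (mouse 2) and 55.5% (mouse 7) were lower within a mouse. The median difference of the 34 genes changed sign between mice, from -0.44 in mouse 5 to 0.26 in mouse 3. At 7 or more mice of 8, 9 probe sets were lower in limbal samples (15.3%, against 4.45% of all tested), namely both of Dkk3, Wnt4 and Fzd5 and 1 each of Wnt9a, Porcn and Nkd1. Higher in at least 7 mice were 2 probe sets (3.39%, against 4.0% of all tested), those of Znrf3 and Fzd4.

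Feedback inhibitors, which are themselves induced by the pathway in many tissues, were tested as 5 genes through 8 probe sets. Differences were negative for 3 and positive for 5, with a median of 0.10. Axin2, the target used most widely as a reporter of canonical signalling, had 151, 369 and 1190 (lowest, median, highest) in limbal samples and 168, 442 and 706 in corneal samples. The sites covered the same range, and the difference was -0.14 with a 95% interval of -1.01 to 0.73.

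Znrf3, an enzyme that removes Frizzled receptors from the cell surface, had 215, 624 and 1218 in limbal samples and 73.9, 351 and 601 in corneal samples. It was higher in the limbal sample in 7 of 8 mice, with mouse 6 the exception and mouse 4 the largest, at 3.0. The difference was 0.80 ± 0.43 (SE, 8 pairs; adjusted p 0.81 in limma's test). The second Znrf3 probe set, 1437646_at, did not pass the filter. Without the filter it gave -0.18, with 4 mice in each direction. Rnf43, a relative of Znrf3, gave -0.25. Nkd1, which acts on Dishevelled, gave 0.16 on the brighter probe set 1440446_at, with 137, 1074 and 2266 in limbal samples and 511, 684 and 1306 in corneal samples. On its other tested probe set, 1417278_a_at, the difference was -0.57 and negative in 7 of 8 mice. The 3 tested probe sets of Nkd2 lay between 0.041 and 0.17.

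Among the transcription factors, Tcf7l2 had 179, 314 and 518 in limbal samples on 1429428_at and 108, 240 and 313 in corneal samples. The difference was 0.49 ± 0.43 (SE) and positive in 6 of 8 mice. Its second probe set gave 0.19. Lef1 gave -0.18 and 0.20 on its 2 probe sets, and Tcf7l1, a repressor of Wnt targets, gave -0.36. Axin1, a scaffold of the complex that destroys beta-catenin, differed by -0.23.

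Other genes of the pathway, in 7 lists with 59 tested genes, were compared in the same fit. None of their 110 tested probe sets passed, and 8 (7.27%) had an unadjusted p under 0.05, against the 6.46% of all tested probe sets given above. These 8 were unevenly spread, with 5 of 16 among other reported targets, 2 of 8 among other secreted antagonists and 1 of 20 among nuclear partners. By gene, 32 were lower and 27 higher in limbal samples. Apcdd1, a membrane-bound inhibitor of Wnt signalling that was also on the limbal basal marker list, had 118, 1686 and 8851 in limbal samples and 133, 541 and 2349 in corneal samples, a difference of 1.73 ± 0.48 (SE; adjusted p 0.22 in limma's test). It was positive in 6 of 8 mice. The list named other secreted antagonists held the membrane-bound Apcdd1. All 4 of its tested genes had positive differences, with a median of 0.32, and Sfrp5 among them gave 0.39 (adjusted p 0.95 in limma's test).

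All 5 tested genes among the other receptors were positive too (median 0.45), with 0.59 for Lgr4, a receptor for R-spondins, and 0.49 for Ryk. The 4 tested genes of the other ligands and ligand export were negative (median -0.48), with -0.64 for Wnt8a and -0.46 for Wls, the carrier that takes Wnt proteins to the cell surface. Of the 10 other reported targets, 7 were negative (median -0.20). Among them Cd44 gave -1.41 ± 0.45 (SE; adjusted p 0.43 in limma's test) on 1452483_a_at and 0.059 on its brighter probe set, and Ccnd1, a cyclin of the G1 phase, gave -0.89 on 1417420_at and -0.90 on the brighter 1448698_at.

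Of the 15 genes of the destruction complex and signal transduction, 10 were negative (median -0.11), and the lowest p-values were those of Csnk1d at 0.72 and Gsk3b at -0.66 on their dimmer probe sets. On their brightest probe sets Csnk1d gave 0.17 and Gsk3b 0.11, so the sign of Gsk3b depends on the probe set read. Of the 11 nuclear partners, 7 were negative (median -0.29), with Tle1, a co-repressor, at 1.11 ± 0.44 (SE; adjusted p 0.64 in limma's test) and Ctbp1 at -0.81. Of the 10 planar cell polarity genes, 4 were negative (median 0.11), with Celsr1 at -0.91 and Prickle2 at -0.63.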

How the data were processed

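Limbal and corneal basal cells of 8 mice were measured on 16 Affymetrix Mouse430_2 arrays, 1 per sample. The deposited values are signal intensities on a linear scale, 1 for each probe set of an array. How they were computed from the scans is not given in the sources used here. With 2% trimmed from either end, each column of intensity that the authors deposited averaged 500.0, so arrays had been scaled to 1 target. From 45101 probe sets 64 controls were removed. The letter in the sample title was read as the site and the number as the mouse. The array information files, used for the scan day, carry sample names that equal the titles for mouse 1 only. For mouse 2 they give another mouse number, and for mice 3 to 8 another scheme, in which the arrays that share a title number also share a letter or number. Sites, pairs and scan days here follow the titles and the sample to which each file belongs, and every difference rests on them.

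Values were analysed as log2(signal + 89.4), where 89.4 is the 25th percentile of the table, which understates changes of dim probe sets. Probe sets above the 40th percentile of mean log2 value (8.27) were tested, 27022 in all. The sites were compared by limma 3.58.1 under R 4.3.3 (statmod 1.5.0 for the random term), with mouse as a fixed effect, a variance trend and Benjamini-Hochberg adjustment over all tested probe sets at a threshold of 0.05. Nothing was imputed. The number of arrays limits the precision, which the intervals give. The fit was tested on simulated data.

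The pairing comes from the labels, which give 8 mice. Deviations of the 2 arrays of a mouse correlated between 0.15 and 0.80 in 7 mice and at 0.035 in mouse 2. Each gene is represented by the brightest of its tested single-symbol probe sets, and the others are given beside it. Levels of different probe sets are not comparable, and those ending in _x_at or _s_at can bind related transcripts. Per-sample values are given for the 16 genes with the smallest p and the 2 brightest genes each of ligands, receptors and secreted antagonists. For other pathway genes, the 2 with the smallest p per list are given. Axin2 was given its per-sample values outside that rule. The genes, lists and tests were chosen with earlier results of these data known. Alternatives covered the mouse term, filter, constant, normalization, variance model, array weights, scan day, averaging of probe sets and leaving out each mouse.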

Additional observations from a re-analysis of the deposited data

Results flagged for a closer look

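Of 36 groups of 8 samples examined for a stray value, 1 had one, where chance alone gives about 1 in 20. The Sfrp1 probe set 1438620_x_at had a signal of 223.5 on the corneal array of mouse 5, and the nearest other corneal array stood at 1303. On the log2 scale the gap was 0.636 of the whole range, against a critical value of 0.526 for 8 samples. The same array had a Krt12 signal of 948 and the lowest median correlation with other arrays. Without mouse 5 the Sfrp1 difference on this probe set was -0.19.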

How the results depend on the processing

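No Wnt pathway probe set passed the threshold under the alternatives run, except with array weights, where 2 did, both of Dkk3. Leaving out each mouse in turn gave 0 calls each time, and a median difference over the tested probe sets of -0.18 to -0.026. Without the mouse as a replicate block the count of Wnt pathway calls was also 0, while the count over all probe sets was 0, against 23 with it. Over all probe sets the count was also 0 with quantile normalization, without mouse 2, on scan days 2 and 3 alone and with probe sets averaged per gene. It was 4 without mouse 1 or mouse 6, 7 without mouse 7, 11 without mouse 3, 52 without mouse 8, 8 with the stricter filter and 117 on scan day 1 alone or with array weights. The cause was not tested.

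Of the 18 genes with per-sample values, 9 kept their direction under each alternative in which their probe set passed the filter. Wnt5a 1436791_at did not pass it on scan day 1 alone, where its mean difference was -0.16. On scan day 1 alone the direction turned for Sfrp1 (0.86), Fzd3 (-0.60), Nkd1 (-0.88), Wnt6 (0.73) and Fzd10 (0.11), on day 2 alone for Wnt4 (0.078), and on day 3 alone for Nkd1 (-0.076), Fzd8 (0.19), Fzd2 (0.69) and Fzd1 (0.055). Without scan day 2 it turned for Fzd3 (-0.16), Nkd1 (-0.40), Fzd8 (0.061) and Wnt6 (0.24), and with array weights for Fzd3 (-0.034), Nkd1 (-0.20) and Fzd2 (0.092). Leaving out a mouse gave -0.20 to 0.096 for Sfrp1, -0.19 to 0.27 for Fzd3, -0.034 to 0.45 for Nkd1 and -0.55 to 0.083 for Fzd2. The Dkk3 probe set 1448669_at lay between -1.59 and -1.13 when a mouse was left out.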
